A study of Mus musculus with 22 samples.

Results

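The B cell genes described here are 30 transcripts of mature B lymphocytes, picked by gene name from the 54532 genes of the deposited table: Cd79a, Cd79b, Blnk, Btk, Blk, Bank1, Ms4a1, Cr2, Cd37, Cd22, Cd72, Siglecg, Fcmr, Fcer2a, Fcrl1, Fcrla, Pax5, Ebf1, Spib, Pou2af1, Pou2f2, Bach2, Tnfrsf13c, Tnfrsf13b, Cxcr5, Cnr2, Vpreb3, Ly6d, H2-Ob and Ralgps2. All 30 passed the low-count filter and stand among the 16638 genes tested. Each had between 25 and 1542 expected counts in every one of the 22 libraries. Of the 30, 18 are mostly used as B lineage markers, and the other 12 (Blnk, Btk, Cd37, Cd72, Siglecg, Ebf1, Spib, Pou2f2, Bach2, Cnr2, Ly6d and Ralgps2) are also known from other lung or immune cells.

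B cells recognise antigen with a membrane immunoglobulin that signals through the paired chains CD79A and CD79B, kinases such as BTK and BLK, and the adaptor BLNK. Coreceptors raise this signal, lectin-type and Fc receptors damp it, and the B cell programme itself is held by factors such as PAX5, EBF1 and the octamer-binding OCT2 with its coactivator OBF-1. In the lung, B cells are found in the circulating and marginated pool of the vessels and as scattered tissue cells, and their survival depends on the cytokine BAFF and on anti-apoptotic proteins of the BCL-2 family.

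Lungs of young male C57BL6/j mice were sequenced after 8 days in 1 of 4 groups. Mice kept in hypoxia received ABT-263 at 50 mg/kg/day (n = 5 libraries) or its vehicle (n = 6). Mice kept in normoxia received ABT-263 at the same dose (n = 6) or vehicle (n = 5), and normoxia with vehicle is the study's control. ABT-263, also called navitoclax, is an inhibitor of anti-apoptotic BCL-2 family proteins that the study used as a senolytic, a drug meant to remove senescent cells. The labels do not say whether each library came from 1 separate mouse, so the p values measure the spread between these libraries, which may be technical.

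Library totals ran from 11509007 to 15744193 expected counts. Defining lung genes were high in every library: surfactant protein Sftpc was at 22559 CPM or more, and club cell Scgb1a1 at 34740 or more. Groups follow the sample titles, but in 3 libraries (number 1 of hypoxia ABT-263, of hypoxia vehicle and of normoxia ABT-263) the treatment tag named the other treatment. For the B cell genes these 3 libraries lay nearer to the mean of their title group than to that of the tag for 22, 28 and 28 of the 30 genes. The 30 genes are not separate readings of a library, and no such count was made over all genes. These counts therefore do not settle which label is right. Single libraries also stood apart within a group: normoxia vehicle library 4 was the highest of its group for 25 of 30 genes, normoxia ABT-263 library 2 for 20 and hypoxia vehicle library 1 for 16, whereas normoxia vehicle library 2 was the lowest of its group for 15. Levels are CPM (counts scaled to an equal library total) after TMM scaling, the trimmed-mean scaling of edgeR. Those of Sftpc and Scgb1a1 above are without TMM scaling. Per-library values are listed for libraries 1 to 5 of the groups of 5, and as lowest, median and highest for the groups of 6.

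Sequence upstream of the members is shown first, since it carries the letters that the octamer, EBF and PU.1 families of B cell factors read. RefSeq windows from 250 bases before to 50 bases after the annotated start were matched by symbol for 25 of the 30 genes, with no entry for Cd79b, Blk, Ms4a1, Cxcr5 and Ly6d. On either strand, the octamer ATTTGCAT stood in the windows of Blnk, Cnr2 and Vpreb3, 3 of 25 members, against 1.97% of 27025 genes with a window. A palindromic EBF-type pattern stood in the window of Cd22, 1 of 25 members, against 1.06% of genes. The PU.1-type pattern GAGGAAGT stood in the windows of Cd37, Cd72 and Fcrl1, 3 of 25 members, against 3.69% of genes. A match describes letters and shows no binding. The 5 windows shown run 5′ to 3′ on the gene's strand, and capitals mark the octamer (Blnk, Cnr2, Vpreb3), the EBF-type pattern (Cd22) or, read on the opposite strand, the PU.1-type pattern (Cd37).
Blnk (GRCm38.p6, chr19:40994172-40994471, minus strand): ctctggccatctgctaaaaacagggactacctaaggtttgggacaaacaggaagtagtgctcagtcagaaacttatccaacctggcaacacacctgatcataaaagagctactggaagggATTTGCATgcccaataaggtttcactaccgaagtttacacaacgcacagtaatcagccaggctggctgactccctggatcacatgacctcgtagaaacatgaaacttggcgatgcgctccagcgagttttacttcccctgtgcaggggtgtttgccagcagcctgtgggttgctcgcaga
Cnr2 (GRCm38.p6, chr4:135894939-135895238, plus strand): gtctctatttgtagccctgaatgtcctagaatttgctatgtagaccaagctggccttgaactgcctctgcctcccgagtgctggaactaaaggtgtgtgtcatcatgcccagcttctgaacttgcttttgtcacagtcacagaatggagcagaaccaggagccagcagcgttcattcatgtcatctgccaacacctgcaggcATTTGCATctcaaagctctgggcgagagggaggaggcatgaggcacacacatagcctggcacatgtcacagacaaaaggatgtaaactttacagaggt
Vpreb3 (GRCm38.p6, chr10:75948050-75948349, plus strand): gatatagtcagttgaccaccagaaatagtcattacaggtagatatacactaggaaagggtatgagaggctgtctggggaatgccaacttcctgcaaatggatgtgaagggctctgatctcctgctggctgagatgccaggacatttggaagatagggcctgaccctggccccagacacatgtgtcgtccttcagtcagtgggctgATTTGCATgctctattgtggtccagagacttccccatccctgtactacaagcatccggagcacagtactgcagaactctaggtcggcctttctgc
Cd22 (GRCm38.p6, chr7:30878979-30879278, minus strand): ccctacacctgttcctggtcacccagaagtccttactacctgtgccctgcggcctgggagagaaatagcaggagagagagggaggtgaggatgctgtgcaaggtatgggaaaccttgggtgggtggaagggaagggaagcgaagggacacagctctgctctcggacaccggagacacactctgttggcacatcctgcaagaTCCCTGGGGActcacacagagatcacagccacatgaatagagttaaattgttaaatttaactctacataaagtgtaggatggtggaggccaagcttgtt
Cd37 (GRCm38.p6, chr7:45238790-45239089, minus strand): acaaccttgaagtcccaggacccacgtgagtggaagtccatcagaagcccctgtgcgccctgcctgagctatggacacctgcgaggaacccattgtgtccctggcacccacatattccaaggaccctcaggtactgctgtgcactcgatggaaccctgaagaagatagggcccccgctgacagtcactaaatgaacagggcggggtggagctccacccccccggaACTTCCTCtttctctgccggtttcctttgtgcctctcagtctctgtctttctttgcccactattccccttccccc

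B cell transcripts were lower in hypoxic than in normoxic lungs, lower with ABT-263 than with vehicle in either oxygen condition, and lowest where both were combined. The summed level of the 30 genes averaged 325 ± 21.4 CPM in hypoxia ABT-263 lungs, 464 ± 41.0 CPM in hypoxia vehicle lungs, 524 ± 51.3 CPM in normoxia ABT-263 lungs and 768 ± 146 CPM in normoxia vehicle lungs (SD, n = 5, 6, 6 and 5). Hypoxia ABT-263 lungs thus held 42.3% of the mean normoxia vehicle level, hypoxia vehicle lungs 60.4% and normoxia ABT-263 lungs 68.3%. Every hypoxia ABT-263 library (295 to 348 CPM) lay below every hypoxia vehicle library (425 to 538.9 CPM). The normoxia ABT-263 range of 479.6 to 619.7 CPM met the normoxia vehicle range of 616 to 991 CPM at library 2 of each group. In RNA from whole lung, fewer B cells and less of these RNAs per B cell cannot be told apart.

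**Figure D1:**
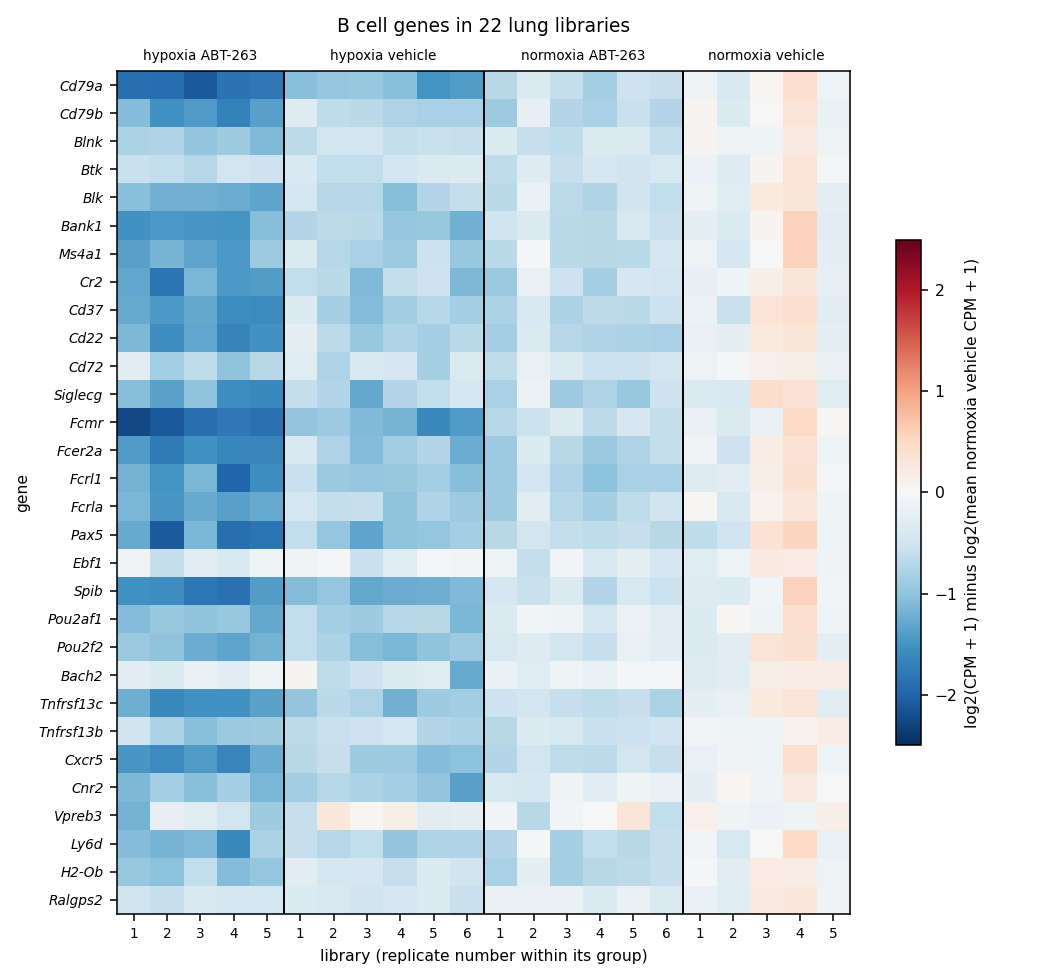
Level of each B cell gene (rows) in each of the 22 libraries (columns, by group and replicate number), as log2(CPM + 1) minus the log2(mean + 1) of the normoxia vehicle group. Most rows are darkest blue in the 5 hypoxia ABT-263 libraries, while for Ebf1, Bach2 and Vpreb3 the groups overlap between oxygen levels and between treatments. Normoxia vehicle library 4 is the reddest column, being highest of its group for 25 genes.

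The first comparison asked what hypoxia changed in vehicle-treated mice. Of the 30 genes, 28 fell and none rose, whereas 12.8% of all genes tested were lower and 13.5% higher by the same rule (adjusted p under 0.05 in edgeR's quasi-likelihood test). The median log2 fold change was −0.76, a ratio of 0.589, against −0.00 over all genes. In 20 genes every hypoxia vehicle library lay below every normoxia vehicle library, which held for 6.96% of all genes. The largest falls were those of the IgM receptor Fcmr (−1.24 ± 0.14, SE), the Ets factor Spib (−1.23 ± 0.14) and Cd79a (−1.16 ± 0.12). Ebf1 and Vpreb3 did not pass.

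In mice given ABT-263, hypoxia was compared with normoxia in the same way. Here 25 genes fell and none rose, against 21.3% of all genes lower and 17.9% higher. The median log2 fold change of the 30 genes was −0.75, against −0.02 over all genes, and in 22 of them every hypoxia ABT-263 library lay below every normoxia ABT-263 library (9.09% of all genes). Fcmr again had the largest fall (−1.55 ± 0.15). Btk, Cd72, Ebf1, Bach2 and Vpreb3 did not pass.

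ABT-263 itself was then compared with vehicle. In normoxia, 14 of the 30 genes fell and none rose, against 0.427% of all genes lower. The median log2 fold change was −0.57, against 0.01 over all genes, 27 of the 30 had an unadjusted p under 0.05, and 9 had non-overlapping groups (1.03% of all genes). The largest fall was that of the Fc receptor-like gene Fcrl1 (−0.88 ± 0.16, adjusted p = 0.0218). This count changed with single libraries, as did the 71 of all genes called lower. Members and all genes lower were 0 and 1 without normoxia vehicle library 4, and 7 and 21 without normoxia vehicle library 3. They were 0 and 2 without normoxia ABT-263 library 1, and 0 and 1 without normoxia ABT-263 library 4. The median of the members stayed between −0.66 and −0.47 with any 1 library left out. Leaving out all 3 libraries of conflicting label gave 6 members and 15 of all genes. The counts were 4 and 16 when only the normoxia groups were fitted, and 22 and 194 with DESeq2.

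In hypoxia, 9 genes fell with ABT-263 (Cd79a, Cd79b, Cd22, Fcmr, Fcer2a, Fcrla, Tnfrsf13c, Cxcr5 and H2-Ob) and none rose, against 0.186% of all genes lower. The median log2 fold change was again −0.57, against −0.01 over all genes, 23 genes had an unadjusted p under 0.05, and 14 had non-overlapping groups (0.727% of all genes). Fcmr had the largest fall (−0.87 ± 0.16, adjusted p = 0.0178). Here too the count changed with single libraries, as did the 31 of all genes called lower. Members and all genes lower were 1 and 3 without hypoxia vehicle library 2, and 4 and 11 without hypoxia vehicle library 1. They were 5 and 17 without hypoxia ABT-263 library 2, 2 and 5 without its library 4, and 2 and 4 without its library 5. The median of the members stayed between −0.62 and −0.53 over the 22 refits that left out 1 library. Cd79a was called in all 22 of these refits, Fcmr in 20, Cd79b, Cd22 and Cxcr5 in 19, Fcer2a in 16, Fcrla in 15, H2-Ob in 7 and Tnfrsf13c in 3. DESeq2 called 16 members, beside 106 of all genes lower, and limma-voom 3, beside 9. Of the 18 genes that mark mostly B cells 9 passed in hypoxia and 11 in normoxia, and of the 12 genes known from other cells 0 and 3 (Blnk, Btk and Cd37) passed. A difference between these sets was not tested, and Cd37 (adjusted p = 0.0558 in hypoxia) was called there in 5 of the 22 refits.

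Averaged over both oxygen conditions, 23 of the 30 genes fell with ABT-263, against 1.31% of all genes, with a median of −0.58 (0.00 over all genes). Ebf1, Pou2af1, Pou2f2, Bach2, Cnr2, Vpreb3 and Ralgps2 did not pass. With the treatment read from the tag in place of the title, no member passed for ABT-263 in either oxygen condition or on average. Nor did any other of the 16638 genes tested. The members' medians were then −0.47 in normoxia, −0.30 in hypoxia and −0.38 on average, and 22, 5 and 23 members had an unadjusted p under 0.05. By the tag 15 members still fell with hypoxia under ABT-263, beside 3134 of all genes.

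**Figure D2:**
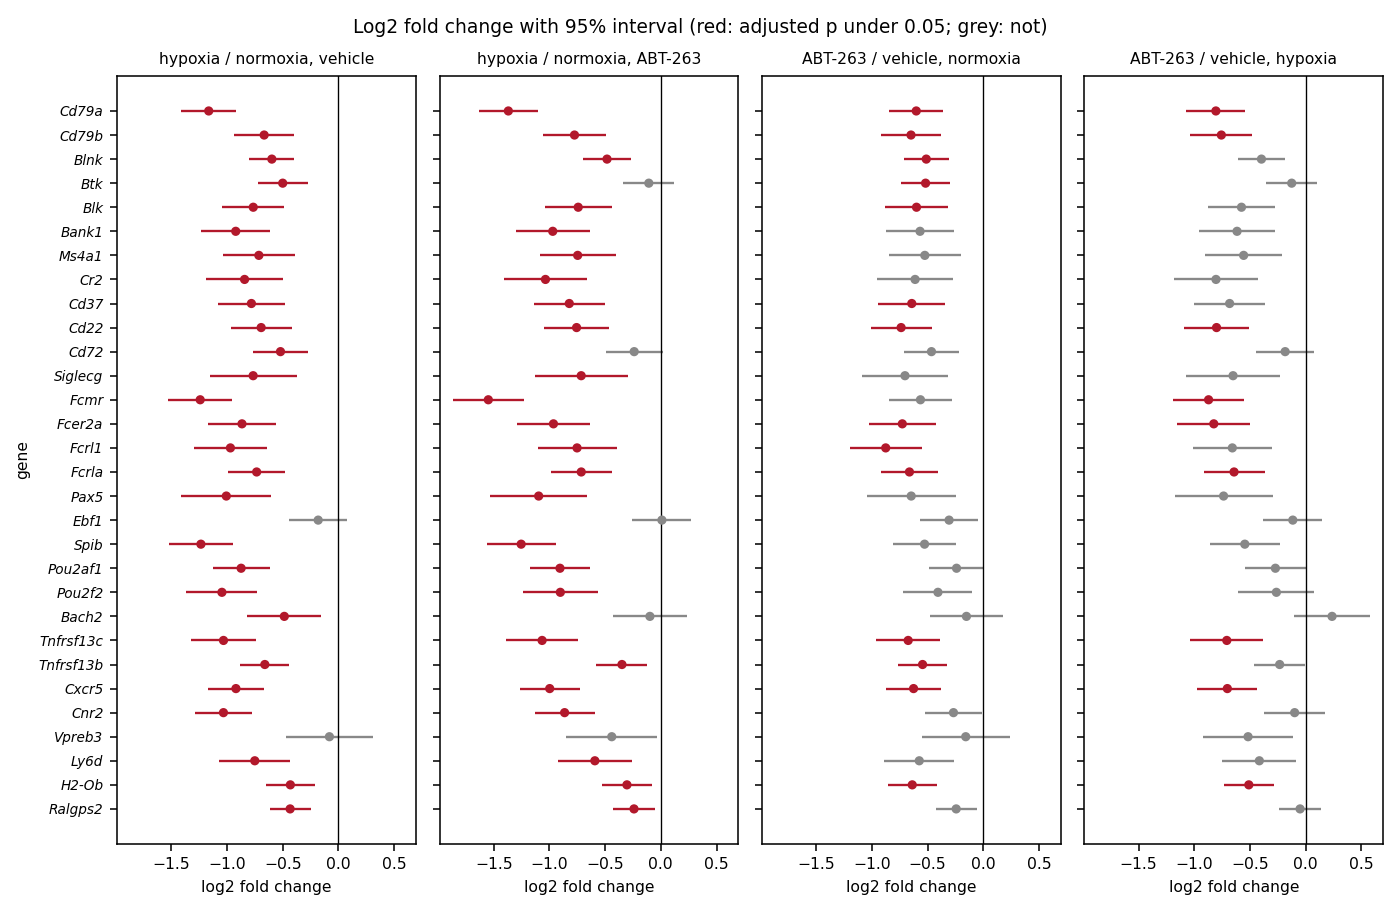
Log2 fold change of each B cell gene with its 95% interval in 4 comparisons; red marks an adjusted p under 0.05 in edgeR's quasi-likelihood test and grey the rest. In the hypoxia panels 28 and 25 genes are red, in the ABT-263 panels 14 and 9, and nearly all points lie left of 0.

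The 6 genes of the antigen receptor complex and its signalling all fell with hypoxia under vehicle and with ABT-263 on average. Cd79a (chr7:24897381-24902197, plus strand, GRCm38 in GENCODE M21, as for every gene here) encodes the signalling chain that pairs with Cd79b (chr11:106311341-106314762, minus strand). Cd79a had 14.8, 14.5, 12.5, 15.3 and 15.8 CPM in hypoxia ABT-263 lungs, against 19.7, 27.1 and 29.1 CPM in hypoxia vehicle lungs. For Cd79a normoxia gave 31.9, 37.8 and 44.0 CPM with ABT-263, against 52.4, 43.5, 59.1, 76.9 and 54.1 CPM with vehicle. The 4 groups of Cd79a were stepwise separate except that normoxia ABT-263 library 2 exceeded normoxia vehicle library 2. Its log2 fold change was −1.16 ± 0.12 (adjusted p = 1.41e-07) for hypoxia with vehicle, −1.37 ± 0.13 (adjusted p = 1.97e-08) for hypoxia with ABT-263, −0.60 ± 0.12 (adjusted p = 0.0224) for ABT-263 in normoxia and −0.81 ± 0.13 (adjusted p = 0.0116) for ABT-263 in hypoxia. Under hypoxia, Cd79b measured 43.3, 31.9, 34.2, 27.9 and 35.4 CPM with ABT-263, against 52.2, 56.1 and 74.2 CPM with vehicle, and under normoxia 49.2, 55.2 and 80.6 CPM with ABT-263, against 97.8, 72.7, 93.3, 117 and 82.5 CPM with vehicle. Cd79b was highest in normoxia vehicle lungs, and its hypoxia vehicle and normoxia ABT-263 groups had near-equal means (58.4 and 59.2 CPM). It fell in all 4 comparisons, with log2 fold changes of −0.67 ± 0.13, −0.77 ± 0.14, −0.65 ± 0.13 and −0.76 ± 0.14 in the same order, which holds wherever 4 values are listed.

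Blnk (chr19:40928927-40994535, minus strand) encodes the adaptor that links the receptor kinases to phospholipase C and is also expressed in macrophages, and its upstream window holds the octamer shown above. In hypoxia, Blnk had 7.501, 7.74, 6.47, 6.93 and 5.86 CPM with ABT-263, against 8.40, 8.97 and 9.71 CPM with vehicle. In normoxia, Blnk had 8.55, 9.69 and 10.6 CPM with ABT-263, against 14.5, 12.7, 12.8, 16.3 and 12.6 CPM with vehicle. No pair of the compared groups overlapped for Blnk, which fell with hypoxia (−0.60 ± 0.10 with vehicle, −0.48 ± 0.10 with ABT-263) and with ABT-263 in normoxia (−0.51 ± 0.10), while ABT-263 in hypoxia gave −0.40 ± 0.10 (adjusted p = 0.0868). Btk (chrX:134542336-134583570, minus strand), a tyrosine kinase of B and myeloid cells, showed another pattern. Btk had 9.02, 8.69, 8.02, 9.69 and 9.33 CPM in hypoxia ABT-263 lungs, against 8.62, 10.005 and 10.8 CPM in hypoxia vehicle lungs. For Btk normoxia gave 8.60, 9.70 and 10.9 CPM with ABT-263, against 12.4, 10.9, 14.6, 17.9 and 13.4 CPM with vehicle. The normoxia vehicle libraries of Btk stood high, touching the next group only at library 2, and the other 3 groups overlapped widely. Btk fell with hypoxia under vehicle (−0.50 ± 0.11, adjusted p = 0.00142) and with ABT-263 in normoxia (−0.52 ± 0.11, adjusted p = 0.0268), and its values were −0.11 ± 0.11 (adjusted p = 0.473) for hypoxia with ABT-263 and −0.13 ± 0.11 (adjusted p = 0.647) for ABT-263 in hypoxia. The difference between the 2 ABT-263 effects was 0.39 ± 0.16 (adjusted p = 0.439).

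Blk (chr14:63372836-63417037, minus strand), a Src-family kinase, and Bank1 (chr3:136053363-136326066, minus strand), a scaffold protein of receptor signalling, are the last of this group. Under hypoxia, Blk measured 6.13, 5.48, 5.40, 5.23 and 4.96 CPM with ABT-263, against 6.13, 8.05 and 9.88 CPM with vehicle, and under normoxia 7.80, 8.52 and 12.3 CPM with ABT-263, against 12.6, 11.0, 16.6, 17.4 and 11.47 CPM with vehicle. Hypoxic lungs were below normoxic lungs for Blk in every library at either treatment, with −0.76 ± 0.14 and −0.74 ± 0.15, and it fell with ABT-263 in normoxia (−0.60 ± 0.14, adjusted p = 0.0391). In hypoxia, Bank1 had 4.83, 5.13, 5.07, 4.95 and 6.94 CPM with ABT-263, against 6.19, 8.34 and 9.57 CPM with vehicle. In normoxia, Bank1 had 9.32, 10.5 and 11.9 CPM with ABT-263, against 13.2, 12.1, 16.4, 23.8 and 12.7 CPM with vehicle. Bank1 fell with hypoxia (−0.92 ± 0.15 with vehicle and −0.97 ± 0.16 with ABT-263), and the ABT-263 effects of −0.57 ± 0.15 (adjusted p = 0.0836) in normoxia and −0.62 ± 0.16 (adjusted p = 0.0951) in hypoxia did not pass. Normoxia vehicle library 4 held the highest Bank1 value, and hypoxia ABT-263 library 5 the highest of its group.

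**Figure D3:**
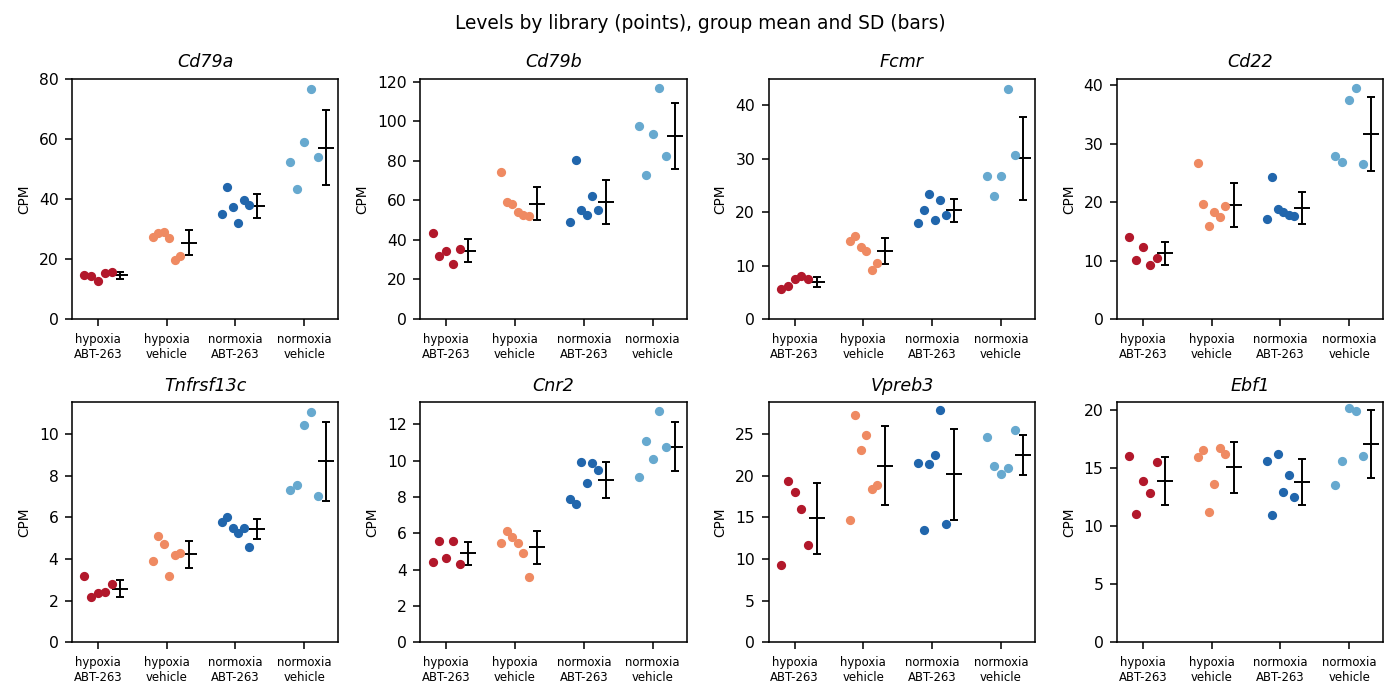
Level (CPM) of 8 B cell genes by library (points) in the 4 groups, with the group mean and SD beside them (n = 5, 6, 6 and 5). Cd79a, Fcmr and Tnfrsf13c step up from hypoxia ABT-263 to normoxia vehicle lungs, and Cnr2 separates by oxygen only. For Vpreb3 and Ebf1 the groups overlap between oxygen levels and between treatments.

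Among the surface proteins that set the strength of the receptor signal, Ms4a1 (chr19:11249675-11266241, minus strand) encodes CD20, Cr2 (chr1:195136811-195176716, minus strand) the complement receptors CD21 and CD35, and Cd37 (chr7:45233632-45239115, minus strand) a tetraspanin of lymphocytes and other leukocytes. Ms4a1 had 16.9, 19.3, 17.2, 15.8 and 23.2 CPM in hypoxia ABT-263 lungs, against 22.8, 25.9 and 34.3 CPM in hypoxia vehicle lungs. For Ms4a1 normoxia gave 27.3, 27.6 and 42.9 CPM with ABT-263, against 40.5, 32.9, 44.9, 66.7 and 37.8 CPM with vehicle. For Ms4a1 every hypoxia ABT-263 library lay below every normoxia ABT-263 and every normoxia vehicle library, and the other pairs of groups in the 4 comparisons overlapped. Ms4a1 fell with hypoxia (−0.71 ± 0.16 and −0.75 ± 0.17 with vehicle and ABT-263), and its ABT-263 effects were −0.52 ± 0.16 (adjusted p = 0.127) in normoxia and −0.56 ± 0.17 (adjusted p = 0.144) in hypoxia. Under hypoxia, Cr2 measured 3.61, 2.17, 4.09, 3.18 and 3.30 CPM with ABT-263, against 4.22, 6.24 and 6.84 CPM with vehicle, and under normoxia 4.92, 7.0003 and 8.89 CPM with ABT-263, against 8.77, 9.44, 11.6, 12.9 and 8.82 CPM with vehicle. Cr2 had the lowest level of these 3 genes in every group and fell with hypoxia (−0.84 ± 0.17 and −1.04 ± 0.18), with −0.80 ± 0.18 (adjusted p = 0.0513) for ABT-263 in hypoxia, where its groups did not overlap. In hypoxia, Cd37 had 21.2, 18.5, 20.8, 17.0 and 16.6 CPM with ABT-263, against 24.1, 28.7 and 40.9 CPM with vehicle. In normoxia, Cd37 had 29.6, 32.5 and 39.7 CPM with ABT-263, against 46.9, 34.8, 66.1, 68.5 and 43.3 CPM with vehicle. Cd37 fell in 3 of the 4 comparisons (−0.78 ± 0.15 for hypoxia with vehicle, −0.82 ± 0.15 for hypoxia with ABT-263 and −0.64 ± 0.15 for ABT-263 in normoxia). The gene overlaps Tead2 in the annotation.

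Cd22 (chr7:30865402-30880342, minus strand), the sialic acid-binding receptor that damps B cell activation, fell throughout. Cd22 had 13.99, 10.2, 12.3, 9.19 and 10.5 CPM in hypoxia ABT-263 lungs, against 15.9, 18.8 and 26.7 CPM in hypoxia vehicle lungs. For Cd22 normoxia gave 17.1, 18.0 and 24.3 CPM with ABT-263, against 27.9, 26.9, 37.5, 39.5 and 26.4 CPM with vehicle. Hypoxia vehicle library 1 and normoxia ABT-263 library 2 stood above the rest of their groups for Cd22, and still every hypoxia ABT-263 library was below every hypoxia vehicle library. The log2 fold changes were −0.69 ± 0.13, −0.76 ± 0.14, −0.74 ± 0.13 (adjusted p = 0.0218) and −0.80 ± 0.14 (adjusted p = 0.0178). Cd72 (chr4:43446462-43454628, minus strand), an inhibitory lectin, and Siglecg (chr7:43408204-43418358, plus strand), another inhibitory sialic acid receptor, fell in fewer comparisons. Under hypoxia, Cd72 measured 21.6, 14.3, 16.7, 12.7 and 15.9 CPM with ABT-263, against 14.4, 19.9 and 21.4 CPM with vehicle, and under normoxia 16.8, 18.5 and 23.1 CPM with ABT-263, against 24.3, 25.8, 29.2, 29.9 and 23.3 CPM with vehicle. Normoxia vehicle lungs had the highest Cd72 levels, without overlap with either neighbouring group, and the other 3 groups overlapped. It fell with hypoxia under vehicle (−0.52 ± 0.12), and the ABT-263 effects were −0.46 ± 0.12 (adjusted p = 0.0817) in normoxia and −0.18 ± 0.13 (adjusted p = 0.522) in hypoxia. Its counts were not whole in any of the 22 libraries, which arises where RSEM divides reads between genes or transcripts. The gene overlaps Tesk1. In hypoxia, Siglecg had 7.57, 6.17, 8.02, 5.16 and 4.87 CPM with ABT-263, against 6.38, 10.3 and 12.3 CPM with vehicle. In normoxia, Siglecg had 8.39, 9.44 and 15.2 CPM with ABT-263, against 13.0, 12.9, 23.3, 22.2 and 13.7 CPM with vehicle. Siglecg fell with hypoxia (−0.77 ± 0.19 and −0.71 ± 0.20) and had ABT-263 effects of −0.70 ± 0.19 (adjusted p = 0.0889) and −0.65 ± 0.20 (adjusted p = 0.158), neither of which passed.

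The Fc receptor-like genes held the gene with the largest falls. Fcmr (chr1:130865669-130880791, plus strand) encodes the receptor for the Fc part of IgM. Fcmr had 5.55, 6.26, 7.45, 7.99 and 7.52 CPM in hypoxia ABT-263 lungs, against 9.19, 13.1 and 15.6 CPM in hypoxia vehicle lungs. For Fcmr normoxia gave 18.0, 19.9 and 23.5 CPM with ABT-263, against 26.8, 23.1, 26.9, 43.1 and 30.7 CPM with vehicle. Fcmr reached at most 7.99 CPM in hypoxia ABT-263 lungs, and its lowest normoxia library had 18.0 CPM. It fell with hypoxia (−1.24 ± 0.14, adjusted p = 6.65e-07 with vehicle and −1.55 ± 0.15, adjusted p = 4.98e-08 with ABT-263) and with ABT-263 in hypoxia, and the normoxia ABT-263 effect of −0.56 ± 0.14 (adjusted p = 0.0614) did not pass. Fcer2a (chr8:3681737-3694175, minus strand) encodes CD23, the low-affinity IgE receptor of mature B cells. Under hypoxia, Fcer2a measured 10.02, 7.74, 9.41, 8.56 and 8.42 CPM with ABT-263, against 11.48, 15.67 and 21.4 CPM with vehicle, and under normoxia 14.5, 16.7 and 22.4 CPM with ABT-263, against 26.9, 19.8, 32.7, 36.9 and 26.6 CPM with vehicle. Fcer2a fell in all 4 comparisons, with −0.87 ± 0.15, −0.96 ± 0.16, −0.73 ± 0.15 and −0.82 ± 0.16. Its hypoxia ABT-263 libraries lay below those of both neighbouring groups, and the other compared groups overlapped.

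Fcrl1 (chr3:87376387-87402934, plus strand) is an activating Fc receptor-like protein of the B cell surface, and Fcrla (chr1:170917576-170927583, minus strand) a relative that stays inside the cell. In hypoxia, Fcrl1 had 5.41, 4.17, 5.57, 2.69 and 3.96 CPM with ABT-263, against 5.92, 6.54 and 8.85 CPM with vehicle. In normoxia, Fcrl1 had 6.07, 7.22 and 9.45 CPM with ABT-263, against 10.6, 10.9, 14.9, 17.9 and 13.1 CPM with vehicle. All 4 pairs of compared groups were separate for Fcrl1, with −0.97 ± 0.16 and −0.75 ± 0.17 for hypoxia, while ABT-263 in hypoxia gave −0.66 ± 0.17 (adjusted p = 0.0885). Fcrla had 10.7, 8.43, 9.74, 9.05 and 9.83 CPM in hypoxia ABT-263 lungs, against 11.8, 15.2 and 18.1 CPM in hypoxia vehicle lungs. For Fcrla normoxia gave 12.7, 15.3 and 20.3 CPM with ABT-263, against 25.2, 19.0, 26.5, 30.5 and 23.1 CPM with vehicle. Fcrla fell in all 4 comparisons (−0.73 ± 0.12, −0.71 ± 0.13, −0.66 ± 0.12 and −0.64 ± 0.13). Across the 4 Fc receptor genes, 4, 4, 3 and 3 members fell in these comparisons.

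Of the 6 transcription factors 5 fell with hypoxia under vehicle, while 0 passed for ABT-263 in either oxygen condition alone and 2 did so on average. Pax5 (chr4:44524757-44710487, minus strand) commits cells to the B lineage and maintains it. Under hypoxia, Pax5 measured 7.57, 3.91, 8.35, 4.60 and 4.79 CPM with ABT-263, against 7.25, 9.59 and 12.5 CPM with vehicle, and under normoxia 11.7, 12.5 and 13.9 CPM with ABT-263, against 12.3, 13.7, 25.4, 28.8 and 18.0 CPM with vehicle. Pax5 in normoxia vehicle lungs was spread widely, with library 1 as low as the normoxia ABT-263 lungs. It fell with hypoxia (−1.01 ± 0.20 and −1.10 ± 0.21), and its ABT-263 effects were −0.65 ± 0.19 (adjusted p = 0.125) and −0.74 ± 0.21 (adjusted p = 0.133). Spib (chr7:44525993-44532071, minus strand), an Ets factor of B cells and plasmacytoid dendritic cells, follows. In hypoxia, Spib had 6.06, 5.82, 4.75, 4.53 and 6.61 CPM with ABT-263, against 7.25, 8.01 and 9.31 CPM with vehicle. In normoxia, Spib had 11.0, 13.4 and 14.7 CPM with ABT-263, against 15.01, 14.8, 18.2, 29.1 and 18.2 CPM with vehicle. No pair of compared groups overlapped for Spib, with −1.23 ± 0.14 (adjusted p = 6.86e-07) and −1.25 ± 0.15 (adjusted p = 8.21e-07) for hypoxia and −0.53 ± 0.14 (adjusted p = 0.0817) and −0.55 ± 0.15 (adjusted p = 0.117) for ABT-263, and normoxia vehicle library 4 stood far above the rest.

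Pou2f2 (chr7:25087344-25179726, minus strand) encodes OCT2, which binds the octamer, and Pou2af1 (chr9:51213708-51240080, plus strand) its B cell coactivator OBF-1. Pou2af1 had 6.78, 7.47, 7.20, 7.497 and 5.78 CPM in hypoxia ABT-263 lungs, against 6.46, 8.55 and 9.66 CPM in hypoxia vehicle lungs. For Pou2af1 normoxia gave 11.0, 13.2 and 14.7 CPM with ABT-263, against 11.9, 15.8, 14.2, 20.6 and 14.4 CPM with vehicle. The hypoxia and normoxia libraries of Pou2af1 were separate at either treatment, while the ABT-263 and vehicle libraries overlapped at either oxygen level. Its log2 fold changes were −0.87 ± 0.12 (adjusted p = 1.37e-05) and −0.91 ± 0.13 (adjusted p = 7.99e-06) for hypoxia, against −0.24 ± 0.12 (adjusted p = 0.407) and −0.27 ± 0.13 (adjusted p = 0.347) for ABT-263. Under hypoxia, Pou2f2 measured 4.76, 4.43, 3.60, 3.39 and 3.80 CPM with ABT-263, against 3.92, 4.63 and 6.12 CPM with vehicle, and under normoxia 6.28, 7.46 and 8.63 CPM with ABT-263, against 7.61, 7.94, 12.6, 13.3 and 8.22 CPM with vehicle. For Pou2f2 too, oxygen groups were separate (−1.05 ± 0.15 and −0.90 ± 0.16) and treatment groups overlapped (−0.41 ± 0.15, adjusted p = 0.225 and −0.26 ± 0.17, adjusted p = 0.484).

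Ebf1 (chr11:44617317-45008091, plus strand), the factor that starts the B cell programme, is also expressed in pericytes, fibroblasts and fat cells. In hypoxia, Ebf1 had 16.1, 11.0, 13.9, 12.9 and 15.5 CPM with ABT-263, against 11.2, 16.1 and 16.7 CPM with vehicle. In normoxia, Ebf1 had 11.0, 13.7 and 16.2 CPM with ABT-263, against 13.6, 15.66, 20.2, 19.96 and 16.0 CPM with vehicle. All 4 groups of Ebf1 overlapped, and none of the 4 comparisons passed, from −0.31 ± 0.13 (adjusted p = 0.284) for ABT-263 in normoxia to 0.01 ± 0.13 (adjusted p = 0.962) for hypoxia with ABT-263. Pericyte and stromal genes moved the other way from the B cell genes. In hypoxia with vehicle 8 of 14 rose and none fell, against 13.5% of all genes higher and 12.8% lower. Their summed level was 1729.6 to 2194 CPM in hypoxia ABT-263 and 1603 to 1862 CPM in hypoxia vehicle lungs. In normoxia it was 1215 to 1609.7 CPM with ABT-263 and 1229.8 to 1629 CPM with vehicle. Their part in the Ebf1 level was not tested. Bach2 (chr4:32238804-32586108, plus strand) represses plasma cell differentiation and is also used by T cells. Bach2 had 9.30, 8.87, 10.1, 9.41 and 10.8 CPM in hypoxia ABT-263 lungs, against 4.22, 8.33 and 12.1 CPM in hypoxia vehicle lungs. For Bach2 normoxia gave 9.21, 10.4 and 11.1 CPM with ABT-263, against 8.98, 9.36, 12.9, 13.3 and 13.2 CPM with vehicle. Hypoxia vehicle lungs spanned the widest Bach2 range, from library 6 to library 1, and every pair of compared groups overlapped. Bach2 fell with hypoxia under vehicle (−0.49 ± 0.16, adjusted p = 0.0276), a call that held in 16 of 22 refits with 1 library left out (log2 fold changes of −0.63 to −0.35) and was lost without normoxia vehicle library 3, 4 or 5 or hypoxia vehicle library 2, 3 or 6. For the other comparisons its values were −0.10 ± 0.16 (adjusted p = 0.666) for hypoxia with ABT-263, −0.15 ± 0.16 (adjusted p = 0.732) for ABT-263 in normoxia and 0.24 ± 0.16 (adjusted p = 0.53) for ABT-263 in hypoxia. Its counts were not whole in 13 libraries.

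All 4 receptors for survival and homing signals fell with hypoxia under vehicle, and 3 with ABT-263 on average. Tnfrsf13c (chr15:82221743-82224369, minus strand) encodes the BAFF receptor and Tnfrsf13b (chr11:61126755-61149372, plus strand) TACI, which binds BAFF and its relative APRIL. Under hypoxia, Tnfrsf13c measured 3.17, 2.17, 2.37, 2.40 and 2.81 CPM with ABT-263, against 3.21, 4.26 and 5.08 CPM with vehicle, and under normoxia 4.58, 5.50 and 6.01 CPM with ABT-263, against 7.33, 7.57, 10.4, 11.1 and 7.03 CPM with vehicle. Tnfrsf13c stepped through the groups with no overlap in any of the 4 comparisons, and it fell in each (−1.03 ± 0.14, adjusted p = 9.92e-06, −1.07 ± 0.16, adjusted p = 1.15e-05, −0.67 ± 0.14, adjusted p = 0.0268 and −0.71 ± 0.16, adjusted p = 0.0497). The call for ABT-263 in hypoxia held in 3 of 22 refits that left out 1 library. In hypoxia, Tnfrsf13b had 9.81, 7.82, 6.47, 7.07 and 7.27 CPM with ABT-263, against 7.89, 9.11 and 10.3 CPM with vehicle. In normoxia, Tnfrsf13b had 8.41, 9.69 and 11.1 CPM with ABT-263, against 13.6, 13.2, 13.1, 15.2 and 16.4 CPM with vehicle. For Tnfrsf13b the normoxia vehicle libraries lay above all others, and the other 3 groups overlapped. It fell with hypoxia (−0.66 ± 0.11 and −0.35 ± 0.11) and with ABT-263 in normoxia (−0.54 ± 0.11), with −0.23 ± 0.11 (adjusted p = 0.341) for ABT-263 in hypoxia.

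Cxcr5 (chr9:44511787-44561877, minus strand), the receptor that brings B cells to follicles along the chemokine CXCL13, fell in all 4 comparisons. Cxcr5 had 5.26, 4.69, 5.40, 4.46 and 6.28 CPM in hypoxia ABT-263 lungs, against 7.05, 8.19 and 10.5 CPM in hypoxia vehicle lungs. For Cxcr5 normoxia gave 9.35, 10.3 and 11.51 CPM with ABT-263, against 13.98, 15.1, 14.8, 21.6 and 14.98 CPM with vehicle. No pair of compared groups overlapped for Cxcr5, with −0.92 ± 0.12, −0.997 ± 0.13, −0.63 ± 0.12 and −0.70 ± 0.13. Its counts were not whole in 21 libraries, and the gene overlaps Bcl9l. Cnr2 (chr4:135895394-135920207, plus strand), the cannabinoid receptor of leukocytes, has the octamer in the window shown above. Under hypoxia, Cnr2 measured 4.40, 5.56, 4.67, 5.59 and 4.29 CPM with ABT-263, against 3.59, 5.47 and 6.14 CPM with vehicle, and under normoxia 7.61, 9.13 and 9.91 CPM with ABT-263, against 9.11, 11.1, 10.1, 12.7 and 10.7 CPM with vehicle. As for Pou2af1 and Pou2f2, the oxygen groups of Cnr2 were separate and the treatment groups overlapped: the log2 fold change was −1.03 ± 0.13 (adjusted p = 1.8e-06) and −0.86 ± 0.13 (adjusted p = 1.59e-05) for hypoxia, against −0.27 ± 0.12 (adjusted p = 0.342) and −0.10 ± 0.13 (adjusted p = 0.789) for ABT-263.

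Of the remaining genes, Vpreb3 (chr10:75943057-75949657, plus strand) encodes a protein that binds immunoglobulin chains inside B lineage cells, and it carries the octamer too. In hypoxia, Vpreb3 had 9.30, 19.4, 18.1, 16.0 and 11.6 CPM with ABT-263, against 14.7, 21.02 and 27.3 CPM with vehicle. In normoxia, Vpreb3 had 13.5, 21.4 and 27.9 CPM with ABT-263, against 24.7, 21.1, 20.1, 20.9 and 25.5 CPM with vehicle. In each of the 4 comparisons the groups of Vpreb3 overlapped, and the order of its libraries differed from that of the other genes. Hypoxia vehicle library 1 and normoxia ABT-263 library 2, which stood highest for most members, were the lowest of their groups for Vpreb3 at 14.7 and 13.5 CPM. None of its 4 comparisons passed (−0.08 ± 0.19, adjusted p = 0.795, −0.44 ± 0.20, adjusted p = 0.0797, −0.16 ± 0.19, adjusted p = 0.778 and −0.52 ± 0.20, adjusted p = 0.242), and it fell only in hypoxia ABT-263 against normoxia vehicle lungs (−0.60 ± 0.20, adjusted p = 0.0265). Ly6d (chr15:74762056-74763620, minus strand) marks B cell commitment in lymphoid progenitors and is also made by squamous epithelium. Ly6d had 18.8, 17.7, 18.6, 12.7 and 23.3 CPM in hypoxia ABT-263 lungs, against 20.1, 24.2 and 27.1 CPM in hypoxia vehicle lungs. For Ly6d normoxia gave 22.7, 25.6 and 39.8 CPM with ABT-263, against 39.1, 30.9, 40.5, 57.8 and 35.8 CPM with vehicle. Ly6d fell with hypoxia (−0.75 ± 0.15 and −0.59 ± 0.16), and its ABT-263 effects were −0.57 ± 0.15 (adjusted p = 0.0879) and −0.42 ± 0.16 (adjusted p = 0.251), with the normoxia ABT-263 library 2 far above its group.

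H2-Ob (chr17:34238903-34254414, plus strand) encodes a chain of H2-O, which restrains peptide loading of class II molecules in B cells. Under hypoxia, H2-Ob measured 23.6, 22.3, 29.95, 21.3 and 23.2 CPM with ABT-263, against 30.6, 33.9 and 38.3 CPM with vehicle, and under normoxia 25.5, 28.5 and 39.3 CPM with ABT-263, against 44.7, 37.7, 53.4, 52.6 and 42.5 CPM with vehicle. Within the 4 comparisons, only the hypoxia ABT-263 and hypoxia vehicle libraries of H2-Ob were separate. H2-Ob fell with ABT-263 (−0.64 ± 0.11, adjusted p = 0.0218 in normoxia and −0.51 ± 0.11, adjusted p = 0.0415 in hypoxia) and, by a smaller value, with hypoxia (−0.43 ± 0.11 with vehicle and −0.30 ± 0.11 with ABT-263). The difference between the effects of drug and hypoxia was not tested. With 1 library left out, H2-Ob was called in 7 of 22 refits for ABT-263 in hypoxia (highest adjusted p = 0.158) and in 15 of 22 for hypoxia with ABT-263 (highest adjusted p = 0.125). The log2 fold change of hypoxia with ABT-263 was −0.20 without normoxia ABT-263 library 2, and the call was also lost without normoxia ABT-263 library 6, hypoxia vehicle library 6 or hypoxia ABT-263 library 1, 2, 4 or 5. Ralgps2 (chr1:156804166-156939626, minus strand) encodes an exchange factor for Ral GTPases and is found in many cell types. In hypoxia, Ralgps2 had 20.99, 19.9, 22.8, 21.996 and 22.1 CPM with ABT-263, against 20.3, 22.7 and 23.7 CPM with vehicle. In normoxia, Ralgps2 had 23.2, 26.4 and 26.8 CPM with ABT-263, against 26.5, 24.2, 35.5, 36.5 and 28.2 CPM with vehicle. Hypoxic and normoxic libraries of Ralgps2 were separate at either treatment, with small falls (−0.43 ± 0.09 and −0.24 ± 0.09), and ABT-263 gave −0.24 ± 0.09 (adjusted p = 0.218) and −0.05 ± 0.09 (adjusted p = 0.851). The call for hypoxia with ABT-263 held in 10 of 22 refits with 1 library left out (highest adjusted p = 0.0940). The gene overlaps Angptl1.

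Counted over the 4 comparisons, 8 genes fell in all (Cd79a, Cd79b, Cd22, Fcer2a, Fcrla, Tnfrsf13c, Cxcr5 and H2-Ob), 6 in 3, 12 in 2, 2 in 1 (Cd72 and Bach2) and 2 in none (Ebf1 and Vpreb3). Over all genes, 0.0902% were lower in all 4 comparisons, which share libraries. For ABT-263 in hypoxia, H2-Ob and Tnfrsf13c were called in only 7 and 3 of the 22 refits, Fcer2a in 16 and Fcrla in 15. Cd79b, Cd22 and Cxcr5 were called in 19 and Cd79a in all 22. For ABT-263 in normoxia, no member passed without normoxia vehicle library 4 or without normoxia ABT-263 library 1 or 4. None of the 8 therefore fell in all 4 comparisons in those refits, nor with the treatment read from the tag. In 5 genes (Blnk, Fcrl1, Spib, Tnfrsf13c and Cxcr5) the groups were separate in every one of the 4 comparisons, against 0.0481% of all genes. The comparisons share groups and are not independent of each other. Per kilobase of exon, Cd79b led in normoxia vehicle lungs (64.8 CPM per kb), before Ly6d (54.8), Cd79a (39.2), Vpreb3 (26.1) and Fcmr (17.3), and the factors Pou2f2 and Bach2 were near 1 (1.204 and 1.16). In hypoxia ABT-263 lungs, Ly6d (24.5) and Cd79b (24.1) were level, Vpreb3 (17.3) stood above Cd79a (10.003), and Fcmr was no longer among the 5 highest.

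The B cell genes did not fall in equal measure, which is visible within a library as the ratio of 2 genes' counts. Cd79a counts per Cd79b count were 0.431 ± 0.0819 in hypoxia ABT-263, 0.439 ± 0.0639 in hypoxia vehicle, 0.645 ± 0.0619 in normoxia ABT-263 and 0.616 ± 0.0508 in normoxia vehicle lungs (SD, n = 5, 6, 6 and 5). With vehicle the oxygen groups were separate (at most 0.502 in hypoxia, at least 0.535 in normoxia), with ABT-263 1 hypoxia library at 0.548 met the lowest normoxia library at 0.546, and the treatment groups overlapped. Fcmr per Cd79b was 0.208 ± 0.0567, 0.218 ± 0.0318, 0.351 ± 0.0559 and 0.324 ± 0.0451 in the same order of groups. Cd22 per Cd79b hardly varied between group means, at 0.325 ± 0.0224, 0.335 ± 0.0337, 0.324 ± 0.0263 and 0.343 ± 0.0449, and Ms4a1 per Cd79b was 0.544 ± 0.103, 0.466 ± 0.0585, 0.525 ± 0.0526 and 0.475 ± 0.0582. Mean ratios with ABT-263 stood above those with vehicle for Pou2af1 (0.207 ± 0.0476 in hypoxia ABT-263, 0.145 ± 0.0212 in hypoxia vehicle, 0.223 ± 0.0257 in normoxia ABT-263 and 0.169 ± 0.0354 in normoxia vehicle lungs). The same held for Ms4a1, Ebf1, Cnr2 (means of 0.147, 0.0901, 0.155 and 0.119 in that order) and Vpreb3 (0.451, 0.372, 0.354 and 0.249). It did not hold at both oxygen levels for Cd79a, Fcmr, Cd22 and Tnfrsf13c. The divisor Cd79b itself fell with ABT-263. Ebf1 per Cd79b was 0.405 ± 0.0476, 0.262 ± 0.0507, 0.242 ± 0.0634 and 0.187 ± 0.0329, and its 5 hypoxia ABT-263 libraries (0.346 to 0.462) lay above all libraries of the other groups. The ratios were formed after the fold changes were seen and were not tested.

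**Figure D4:**
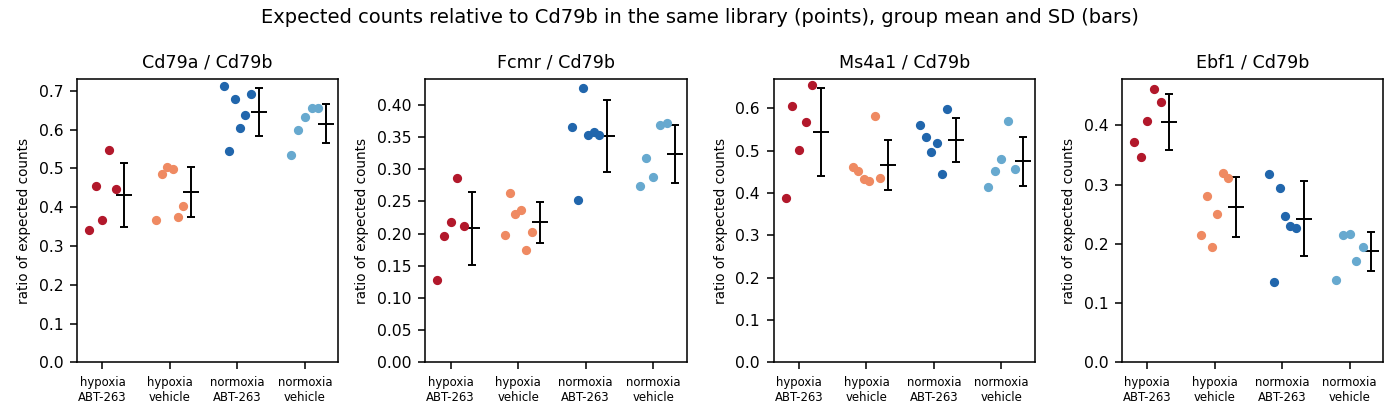
Expected counts of 4 genes divided by those of Cd79b in the same library (points), with group mean and SD. Cd79a and Fcmr per Cd79b are lower on average in both hypoxia groups, the groups overlap for Ms4a1 per Cd79b, and Ebf1 per Cd79b is highest in the 5 hypoxia ABT-263 libraries.

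Whether ABT-263 acted differently in hypoxia and normoxia was tested by the interaction term. No member passed in either direction, and 0% of all genes were lower and 0% higher (edgeR's quasi-likelihood test, with 951 and 595 genes at an unadjusted p under 0.05 and 1 of the 30, Btk). DESeq2 called 17 genes, none of them a B cell gene, and limma-voom called 0. The differences between the ABT-263 effects ran from −0.36 (Vpreb3) to 0.39 (Btk), and the 95% intervals reached up to 0.59 on either side, which limits what differences could be seen. Hypoxia ABT-263 lungs set against normoxia vehicle lungs had 28 genes lower, against 17.2% of all genes, with a median of −1.36 (a ratio of 0.390), from −2.11 ± 0.16 for Fcmr and −1.97 ± 0.13 for Cd79a to −0.25 ± 0.17 (adjusted p = 0.263) for Bach2, which did not pass, as Ebf1 did not (−0.30 ± 0.13, adjusted p = 0.0861).

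Other genes linked to B cells, from lists chosen with results of these data known, moved partly with the 30. Many genes of these lists are not restricted to B cells, and the cells behind their values were not tested. Over all genes, 12.8% were lower and 13.5% higher for hypoxia with vehicle, and 1.31% lower and 1.23% higher for ABT-263 on average. Of 20 further genes of receptor signalling, 14 fell and 1 rose in hypoxia with vehicle, among them phospholipase Plcg2 (−0.89 ± 0.11) and the phosphatases Ptpn6 (−0.53 ± 0.08) and Inpp5d (−0.59 ± 0.09), which other leukocytes also use. With ABT-263 on average 6 of the 20 fell, among them the kinase Prkcb (−0.53 ± 0.09) and the lipid kinase Pik3cd (−0.38 ± 0.08). Of 20 genes of B cell subsets, 9 fell and 1 rose in hypoxia with vehicle, and 6 fell with ABT-263 on average. The IgM heavy chain Ighm (−0.99 ± 0.12) and the sialoglycoprotein Spn (−1.01 ± 0.13) fell with hypoxia while the costimulatory receptor Cd40 rose (0.60 ± 0.08), and the IgD heavy chain Ighd had the smallest p for ABT-263 (−0.99 ± 0.09). Reads of immunoglobulin genes are shared between similar segments and their values are uncertain. Of 9 plasma cell genes tested, 5 fell and none rose with hypoxia, led by Irf4 (−0.87 ± 0.14), Prdm1 (−0.87 ± 0.17) and Mzb1 (−0.61 ± 0.15), and 2 fell with ABT-263 on average.

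Genes of several other leukocytes also fell. The shares of all genes to set beside them are 12.8% lower and 13.5% higher for hypoxia with vehicle. For ABT-263 on average they are 1.31% and 1.23%. In hypoxia with vehicle, 15 of 18 pan-leukocyte genes and 13 of 17 genes of T cells fell and none rose, and among 16 cytotoxic and NK cell genes 11 fell and 1 rose. With ABT-263 on average 7, 9 and 13 of these fell and none rose. Of 14 macrophage and dendritic genes 3 fell and 4 rose with hypoxia under vehicle, and of 10 neutrophil genes 3 fell and 1 rose. A difference of these small lists from the shares over all genes was not tested. With ABT-263 on average 1 macrophage and dendritic gene rose and no neutrophil, pericyte or stromal gene passed. The pan-leukocyte genes summed to 862 to 978, 911 to 1125, 1111 to 1279 and 1284 to 1871 CPM in hypoxia ABT-263, hypoxia vehicle, normoxia ABT-263 and normoxia vehicle lungs, and the T cell genes to 91.7 to 129, 119 to 138, 110.2 to 156 and 157 to 223 CPM. On average, pan-leukocyte levels in hypoxia ABT-263, hypoxia vehicle and normoxia ABT-263 lungs were 63.2%, 69.0% and 82.1% of those in normoxia vehicle lungs, beside 42.3%, 60.4% and 68.3% for the B cell genes and 46.7%, 64.2% and 60.7% for the cytotoxic and NK cell genes. Differences between these lists were not tested. The cytotoxic and NK cell genes summed to 59.4 to 106, 94.5 to 157, 90.6 to 150.1 and 157 to 229 CPM in the same order of groups. Their median log2 fold changes were −0.82 for hypoxia with vehicle, −0.61 for hypoxia with ABT-263, −0.73 for ABT-263 in normoxia and −0.55 for ABT-263 in hypoxia, beside −0.76, −0.75, −0.57 and −0.57 for the B cell genes. When libraries were scaled to the pan-leukocyte genes, which moved the median of all genes by 0.51, 0.35, 0.28 and 0.12 for hypoxia with vehicle, hypoxia with ABT-263, ABT-263 in normoxia and ABT-263 in hypoxia, 12, 18, 9 and 6 of the B cell genes were lower, against 1.14%, 2.69%, 0.282% and 0.0661% of all genes, with medians of −0.23, −0.37, −0.28 and −0.44. On that scale 12 genes were still lower for hypoxia with vehicle: Cd79a, Bank1, Fcmr, Fcer2a, Fcrl1, Pax5, Spib, Pou2af1, Pou2f2, Tnfrsf13c, Cxcr5 and Cnr2. Ebf1 was then higher (0.35, adjusted p = 0.038), but so were 70.6% of all genes on that scale, and their median of 0.51 exceeded the Ebf1 value. Pan-leukocyte genes are also expressed by B cells, and Ptpn6 and Vav1 stand in the receptor signalling list too. The pan-leukocyte list and the scaling to it are therefore not separate from B cells. The part of other leukocytes in these results was not tested.

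**Figure D5:**
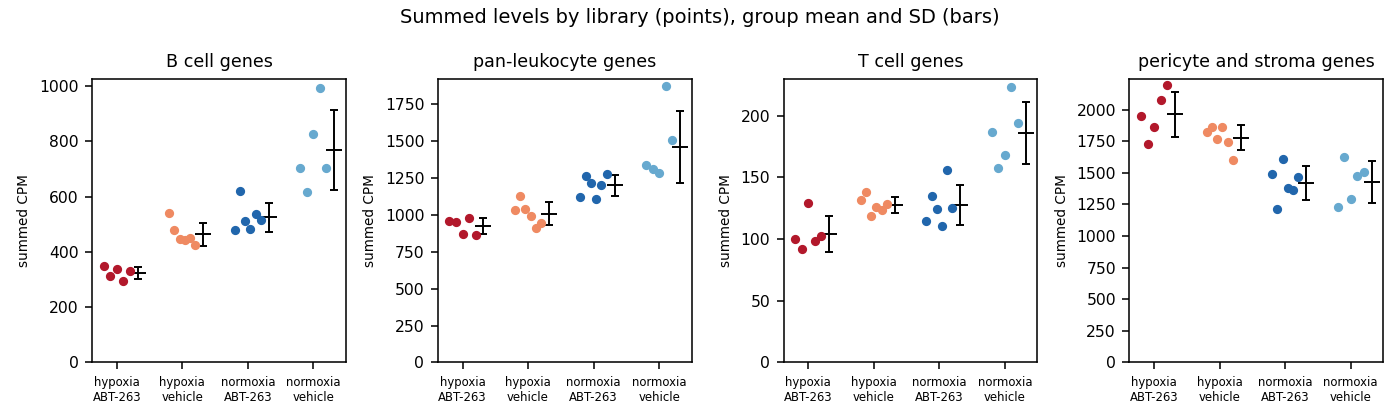
Summed CPM of the B cell, pan-leukocyte, T cell, and pericyte and stroma genes by library (points), with group mean and SD. The B cell sum averages 325, 464, 524 and 768 CPM from left to right, the leukocyte and T cell sums are also lowest on the left and highest on the right, and the pericyte and stroma sum is higher in both hypoxia groups.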

How the data were processed

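Per the labels' protocols, RNeasy-extracted lung RNA went into TruSeq Stranded mRNA libraries for Illumina sequencing. The table holds expected counts per gene deposited by the authors, made with Trimmomatic, STAR and RSEM on GRCm38 per the submitters' processing notes, without versions. RSEM divides reads that match several genes, and 19 of the 30 members had whole counts (within 0.001) in every library.

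Expected counts were rounded and filtered with filterByExpr of edgeR 4.0.16 (minimum count 10; R 4.3.3), leaving 16638 genes. TMM factors and the robust quasi-likelihood test were applied in one fit of the 4 title groups, two-sided, with Benjamini-Hochberg adjustment over all genes tested and a threshold of 0.05. Standard errors were derived from F. The procedure was tested on simulated data in which genes varied independently, so that test does not show how stable the ABT-263 calls are. Alternatives used DESeq2 1.42.0, limma 3.58.1 (voom), other scalings and filters, other label readings and left-out libraries. Figures used matplotlib 3.10.9. Libraries of a group differed beyond counting noise (chi-square per gene 5.35 to 40.9). Each was entered as 1 replicate, although that spread does not show that libraries came from separate mice. Gene positions and exon lengths are from GENCODE M21, promoters from RefSeq GRCm38.p6. The 30 members and the 11 other lists were chosen with earlier results of these data known. All 30 members are described, and of the other lists the genes with the smallest p, except 1 gene that is not reported here.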

Additional observations from a re-analysis of the deposited data

Results flagged for a closer look

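Of 120 sets of values (30 genes in 4 groups), 12 held a library far from the rest by Dixon's test, where chance gives about 1 in 20, or 6. Normoxia ABT-263 library 2 was the high one for 5 genes: Blk at 12.3 CPM (others 7.80 to 9.46), Ms4a1 at 42.9 (27.3 to 33.0), Cd22 at 24.3 (17.1 to 18.8), Ly6d at 39.8 (22.7 to 27.0) and H2-Ob at 39.3 (25.5 to 30.5). Hypoxia vehicle library 1, whose treatment tag names ABT-263, was the high one for Cd79b at 74.2 CPM (others 52.2 to 59.2), Cd22 at 26.7 (15.9 to 19.7) and Fcrl1 at 8.85 (5.92 to 6.98). Normoxia vehicle library 4 was the high one for Spib at 29.1 CPM (others 14.8 to 18.2) and Cxcr5 at 21.6 (13.98 to 15.1). In hypoxia ABT-263 lungs, library 5 was high for Bank1 at 6.94 CPM (others 4.83 to 5.13) and library 3 for H2-Ob at 29.95 (21.3 to 23.6). Each of the 12 values lay above its group.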

How the results depend on the processing

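Counts and gene values were recomputed under 12 other choices of tool, filter, scaling, labels and libraries. With any 1 library left out, 27 to 28 members were lower for hypoxia with vehicle, 23 to 25 for hypoxia with ABT-263, 21 to 23 for ABT-263 on average and 27 to 28 for hypoxia ABT-263 against normoxia vehicle, but 0 to 20 for ABT-263 in normoxia and 1 to 13 for ABT-263 in hypoxia. For ABT-263 in normoxia, 22 members were lower with DESeq2, 9 scaled to pan-leukocyte genes, 4 with only the compared groups and 6 without the 3 label-conflict libraries. For ABT-263 in hypoxia it was 16 with DESeq2 and 3 with limma-voom. The number of all genes called lower for ABT-263 moved too, as given above. With treatment read from the tag, 15 members were lower for hypoxia with ABT-263. By the tag 0 were lower for ABT-263 in normoxia, in hypoxia and on average, where 0 of all genes passed. Scaled to pan-leukocyte genes, 12 members were lower and 1 higher for hypoxia with vehicle. On that scale 1 member was higher for hypoxia with ABT-263 and 2 for hypoxia ABT-263 against normoxia vehicle. Of all genes, 70.6%, 47.6% and 74.6% were higher in these comparisons, in the same order. That scaling turned the sign of these log2 fold changes: for hypoxia with vehicle Btk 0.043, Cd72 2.91e-05, Ebf1 0.35, Bach2 0.042, Vpreb3 0.42, H2-Ob 0.091 and Ralgps2 0.094; for hypoxia with ABT-263 Btk 0.27, Cd72 0.14, Bach2 0.28, Tnfrsf13b 0.025, H2-Ob 0.083 and Ralgps2 0.14; for ABT-263 in normoxia Pou2af1 0.044, Bach2 0.13, Cnr2 0.0096, Vpreb3 0.12 and Ralgps2 0.034; for ABT-263 in hypoxia Ebf1 0.0085, Cnr2 0.030 and Ralgps2 0.076. It also did so for ABT-263 on average (Cnr2 0.020 and Ralgps2 0.055) and for hypoxia ABT-263 against normoxia vehicle (Btk 0.033, Ebf1 0.35, Bach2 0.41, Vpreb3 0.041 and Ralgps2 0.17). Values near 0 also turned: Vpreb3 for hypoxia with vehicle without the 3 label-conflict libraries (0.0081), Cnr2 0.013 and Ralgps2 0.015 for ABT-263 in hypoxia by the tag, and, without normoxia ABT-263 libraries 2 and 6, Ebf1 for hypoxia with ABT-263 (−0.089) and Vpreb3 for ABT-263 in normoxia (0.041). With 1 library left out, Bach2 for ABT-263 on average ran −0.022 to 0.11, Ebf1 for hypoxia with ABT-263 −0.034 to 0.080 and Vpreb3 for hypoxia with vehicle −0.17 to 0.0082. The causes were not tested. No paired analysis was possible because the replicate numbers only follow the order of the samples and the labels tie no library to another.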

Other observations

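A list of B cell survival and niche genes also held BCL-2 family genes, which are not particular to B cells. Of its 14 tested genes, 4 fell and 4 rose in hypoxia with vehicle, against 12.8% and 13.5% of all genes. With ABT-263 on average 1 of them fell, against 1.31%. The lymphotoxin gene Ltb, needed for lymphoid follicles, fell with hypoxia (−0.81 ± 0.11) and with ABT-263 on average (−0.56 ± 0.08). The interleukin-7 receptor Il7r (−0.62 ± 0.13) and the pro-apoptotic Bcl2l11 (−0.49 ± 0.12) also fell with hypoxia, and the cytokine BAFF, encoded by Tnfsf13b, fell (−0.33 ± 0.11). Over the 14 genes the median log2 fold change for hypoxia with vehicle was 0.11, from −0.81 to 0.49. Of the 4 genes that rose only Bcl2 is named, so the named genes do not stand for the list. Bcl2, which encodes a target of ABT-263, rose with hypoxia (0.25 ± 0.09) and had −0.03 ± 0.06 for ABT-263 on average, which did not pass. Tnfsf13b and Bcl2 are named after their values were seen. Values of the other anti-apoptotic BCL-2 family genes in the list are not given, so Bcl2 does not stand for them.

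Of 8 germinal centre genes tested, S1pr2 rose with hypoxia under vehicle (0.37 ± 0.08) while Bcl6 (−0.58 ± 0.13) and Pdcd1lg2 (−0.81 ± 0.28) fell. Of all genes, 13.5% were higher and 12.8% lower there. With ABT-263 on average, Mybl1 rose (0.89 ± 0.21) and none fell, against 1.23% of all genes higher and 1.31% lower. Mybl1 averaged 3.29 CPM in hypoxia ABT-263, 1.41 in hypoxia vehicle, 1.73 in normoxia ABT-263 and 1.15 in normoxia vehicle lungs.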
